A study of Mus musculus with 8 samples.

Results

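Collagen chain genes encode the polypeptides that wind into the triple helices of the extracellular matrix. They were followed here on arrays of RNA from whole mouse kidneys taken at embryonic day 14.5, which compared wild-type kidneys with kidneys of a conditional Mdm4 mutant. The members were all genes whose mouse symbol has the form Col, number, a, number, and which a probe's RefSeq accession identified. That gave 44 genes, as many as the RefSeq gene table holds, with 67 probes, among 22911 named genes on the array. Of these, 39 passed the filter on dim probes and were tested, among 16013 genes tested in all: 11 of 11 fibrillar genes, 7 of 8 basement membrane genes and 21 of 25 genes of other types. Counts below cover the genes that passed. Col4a4 was the 1 collagen gene that passed through 1 genotype, the wild type, with 6 wild-type and 5 mutant channels well above background.

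The mutant carried a Hoxb7-Cre transgene, which drives Cre in the ureteric bud and its collecting duct derivatives and removes Mdm4, an inhibitor of p53. Most matrix-producing cells of the kidney lie outside that lineage and keep the gene. The 4 wild-type and 4 mutant RNAs formed 4 pairs, each run on a dye-swapped set of 2 Agilent 2-colour arrays. Whether an RNA stands for 1 embryo or a pool is not in the labels, so p-values measure only the spread of these pairs, part of which may be technical. Each value is the log2 ratio of mutant to wild type, averaged over both arrays of a pair, unless a level is named. Errors are standard errors from the limma fit with n = 4 pairs, and the threshold was an adjusted p of 0.05 over all genes tested.

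Collagens differ in the structures they build. Fibrillar collagens assemble into the banded fibrils of interstitial tissue, and in the kidney they are made mainly by stromal and interstitial cells. Type IV collagen forms the sheet-like network of basement membranes under tubules, around vessels and in the glomerular filter, and types XV and XVIII sit in or near basement membranes. The other types form beaded filaments, hexagonal networks and anchoring fibrils, decorate fibrils, or span the cell membrane. In a whole organ, fewer cells of a type and less RNA per cell cannot be told apart.

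Of the 62976 spots of an array, 60.7% to 70.2% stood well above background in each channel, with 0 saturated. Precision is limited by the number of pairs, 4, and the standard error had a median of 0.07 over all genes tested. Mdm4 itself was at -0.03, -0.06, -0.28 and -0.35 in pairs 1 to 4. The probe may lie outside the deleted part, and whole-kidney RNA includes cells outside the Cre lineage, so these values do not test the labels. The mean of the Y-linked transcripts Eif2s3y, Kdm5d and Ddx3y was 3.10, 1.53, -1.72 and 3.10, so the RNAs of a pair differed in sex-linked transcripts, in the opposite direction in pair 3. Genes of kidney lineages were present, with 8 of 8 nephron progenitor, 12 of 12 ureteric and 9 of 9 podocyte markers above the dim filter. Dye orientation went together with array position on the slide.

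The comparison asked which collagen genes change in the kidney after loss of Mdm4 from ureteric cells. limma called 0 of 39 collagen genes and 0 of 16013 genes (0.0%) at the adjusted threshold. At an unadjusted limma p under 0.05 there were 14 collagen genes higher and 0 lower, where 7.01% of all genes were higher and 3.6% lower. The ratio was above 0 in all 4 pairs for 14 of 39 collagen genes, against 12.1% of all genes. It was below 0 in all 4 pairs for 0 of 39, against 7.84%. These counts rest on the brightest probe of each gene. Other kept probes were below 0 in all 4 pairs for Col11a1, Col11a2 and Col22a1, and above 0 for Col4a5, Col15a1 and Col25a1. Over the collagen genes the median ratio was 0.17, and over all genes it was 0.01. The mean was above 0 for 31 of 39 collagen genes, against 53.9% of all genes. By pair the collagen median was 0.23, 0.19, 0.00 and 0.11, and the all-gene median was -0.01, -0.003, 0.04 and 0.03. In pair 3, 20 of 39 collagen genes were above 0, against 9726 of 16013 genes, so collagens lay slightly below the array as a whole. Without pair 3 the count above 0 in every pair was 24 of 39, against 17.5% of all genes, and with the Cy5-mutant arrays alone it was 9, against 15.9%. Median centring in place of loess gave 23, against 31.0%. Genes measured in the same RNAs are not independent of each other, and the exact two-sided sign-flip test over 4 pairs cannot give a p below 1 in 8.

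**Figure D1:**
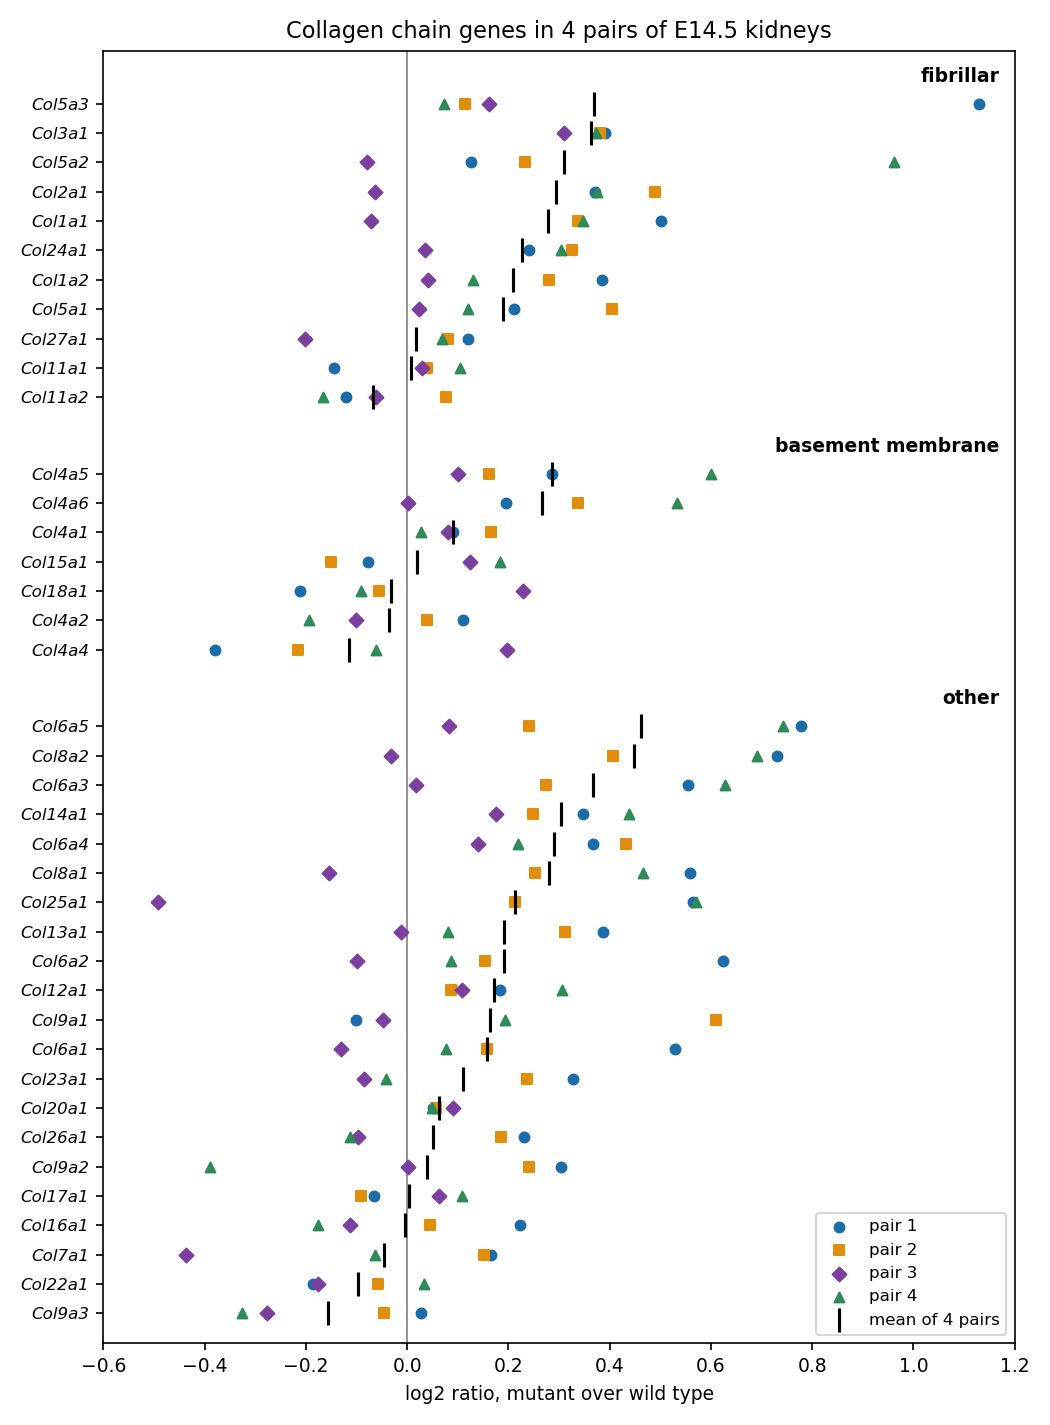
Each row is 1 of the 39 collagen genes tested, the horizontal axis is the log2 ratio of mutant over wild type, symbols are the 4 pairs and the black bar is their mean. The mean lay above 0 for 10 of 11 fibrillar, 4 of 7 basement membrane and 17 of 21 other genes, against 53.9% of all genes tested. Pair 3 often lay to the left of the other pairs.

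Fibrillar genes had a median ratio of 0.23, with 10 of 11 means above 0, against 53.9% of all genes, and 0 called. In all 4 pairs, 5 of 11 fibrillar genes were above 0, against 12.1%. The most even of them was Col3a1, on chromosome 1, the only chain of type III collagen, a homotrimer of distensible and embryonic tissues. Its log2 level was 15.18, 14.78, 14.79 and 14.87 in the wild-type RNAs of pairs 1 to 4 and 15.57, 15.16, 15.10 and 15.24 in the mutant RNAs. The levels of the genotypes overlapped, because the wild-type RNA of pair 1 was brighter than 2 mutant RNAs, but within each pair the mutant was the brighter one. The ratios were 0.39, 0.38, 0.31 and 0.37 (mean 0.36 ± 0.05, 1.29-fold, SD over pairs 0.04), and all 8 arrays gave a value above 0. limma's adjusted p was 0.232, the smallest among the collagen genes. The size depended on the dye, at 0.19 where the mutant RNA carried Cy5 and 0.53 where it carried Cy3.

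Type I collagen, the main fibril former of most connective tissue, is built from the products of Col1a1 and Col1a2. Col1a1 was at 0.50, 0.34, -0.07 and 0.35 in pairs 1 to 4 (mean 0.28 ± 0.10, limma adjusted p = 0.442), and its other probe gave the same mean of 0.28. For Col1a2 the levels were 16.20, 15.80, 16.04 and 15.81 in wild type and 16.58, 16.08, 16.08 and 15.94 in the mutant, and the genotypes overlapped. Its ratios of 0.39, 0.28, 0.04 and 0.13 were all above 0 (mean 0.21 ± 0.07, limma adjusted p = 0.442), and each averages both dye orientations. A dye effect cancels in such an average only where it has the same size on both arrays, which was not tested. The single arrays differed by orientation. With mutant RNA in Cy5 the 4 arrays gave 0.19, -0.06, -0.46 and -0.46, and with it in Cy3 they gave 0.58, 0.62, 0.54 and 0.72.

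Promoter sequences are given for Col3a1 and Col1a2 because the former had the most even ratio of the fibrillar genes and the latter encodes a chain of the most abundant fibril. They are the 250 bases upstream of the outermost annotated start, from RefSeq with build GRCm38.p6, 5′ to 3′ on the gene's strand. Col3a1 lies on the plus strand, with the window at chr1:45311288-45311537, and Col1a2 on the plus strand, at chr6:4505368-4505617. Capitals mark matches, on either strand, to TATAAA, the core of a TATA box, CCAAT, the letters bound by NF-Y, and GGGCGG, the GC box bound by Sp1-type factors.
Col3a1: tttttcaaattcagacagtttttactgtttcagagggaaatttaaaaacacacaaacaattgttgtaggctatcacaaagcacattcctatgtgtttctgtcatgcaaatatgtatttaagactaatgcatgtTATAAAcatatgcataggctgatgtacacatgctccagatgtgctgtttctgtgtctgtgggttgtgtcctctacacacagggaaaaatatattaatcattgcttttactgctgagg
Col1a2: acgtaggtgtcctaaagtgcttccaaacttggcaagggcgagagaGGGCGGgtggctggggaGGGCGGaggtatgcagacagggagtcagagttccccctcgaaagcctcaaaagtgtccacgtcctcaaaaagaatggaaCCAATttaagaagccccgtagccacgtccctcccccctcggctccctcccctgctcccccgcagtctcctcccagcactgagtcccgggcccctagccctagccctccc
The Col3a1 window holds 1 TATAAA and neither of the other motifs. The Col1a2 window holds 2 GGGCGG and 1 CCAAT. A match is a description of letters, not a bound site. The RefSeq promoter table used here matched 35 of 44 collagen genes. Of these 35 windows, 21 held GGGCGG (60.0%), 12 held CCAAT (34.3%) and 5 held TATAAA (14.3%). Over 27025 windows, 1 per gene, the shares were 33.0%, 34.5% and 13.0%. GGGCGG stood in 6 of 8 fibrillar, 4 of 7 basement membrane and 11 of 20 other windows.

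Type V chains join type I fibrils and set their diameter. Col5a1 was at 0.21, 0.40, 0.02 and 0.12 (mean 0.19 ± 0.08). Its partner chain gene Col5a2 was at 0.13, 0.23, -0.08 and 0.96 (mean 0.31 ± 0.17), and the high value of pair 4 came from both dyes, at 1.40 and 0.53. Col5a3, which encodes a less widespread type V chain, was at 1.13, 0.11, 0.16 and 0.07 (mean 0.37 ± 0.18). The means of Col5a2 and Col5a3 thus rested mostly on 1 pair each, a different one. Their limma adjusted p-values were 0.469, 0.548 and 0.527.

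Col2a1 and the type XI genes encode the fibrils of cartilage, which also occur in some embryonic epithelia and mesenchyme. Col2a1 had levels of 11.36, 11.21, 11.89 and 11.68 in wild type and 11.73, 11.70, 11.82 and 12.06 in the mutant, and the genotypes overlapped. Its ratios were 0.37, 0.49, -0.06 and 0.38 (mean 0.29 ± 0.10, limma adjusted p = 0.434), with nearly the same mean in both dye orientations, 0.29 and 0.30. The type XI genes lay near 0: Col11a1 had a mean of 0.01 ± 0.06 and Col11a2 one of -0.07 ± 0.06. The other Col11a1 probe gave a mean of -0.16 and was below 0 in every pair, at -0.03, -0.07, -0.23 and -0.31. Of 10 cartilage markers, 3 passed the dim filter (Cnmd, Hapln1 and Matn1), while Acan, Chad, Comp, Epyc, Matn3, Snorc and Ucma did not. The summed level of the 3 was 1393 to 1640 in wild type and 1577 to 2005 in the mutant. Most of it came from Hapln1, whose mean ratio was 0.18 ± 0.07. The dimmer Cnmd averaged 0.44 ± 0.07 and Matn1 0.01 ± 0.05. The part of cartilage cells in the Col2a1 ratio was not tested.

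Of the late-described fibrillar genes, Col24a1 and Col27a1 encode chains linked to bone and cartilage. Col24a1 levels were 8.27, 8.13, 8.31 and 8.20 in wild type and 8.51, 8.46, 8.34 and 8.50 in the mutant, so the genotypes did not overlap. Mutant levels all above the wild-type ones were seen in 7 of 39 collagen genes, against 3.3% of all genes, and the reverse in 0 of 39, against 1.52%. The Col24a1 ratios were 0.24, 0.33, 0.04 and 0.30 (mean 0.23 ± 0.07, limma adjusted p = 0.424). Its other probe gave a smaller mean of 0.07 and was at -0.055 in pair 3. Col27a1 was at 0.12, 0.08, -0.20 and 0.07 (mean 0.02 ± 0.07), with opposite signs in the dye orientations, 0.20 and -0.17. Leaving out Col3a1, the median of the other fibrillar genes was 0.22.

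**Figure D2:**
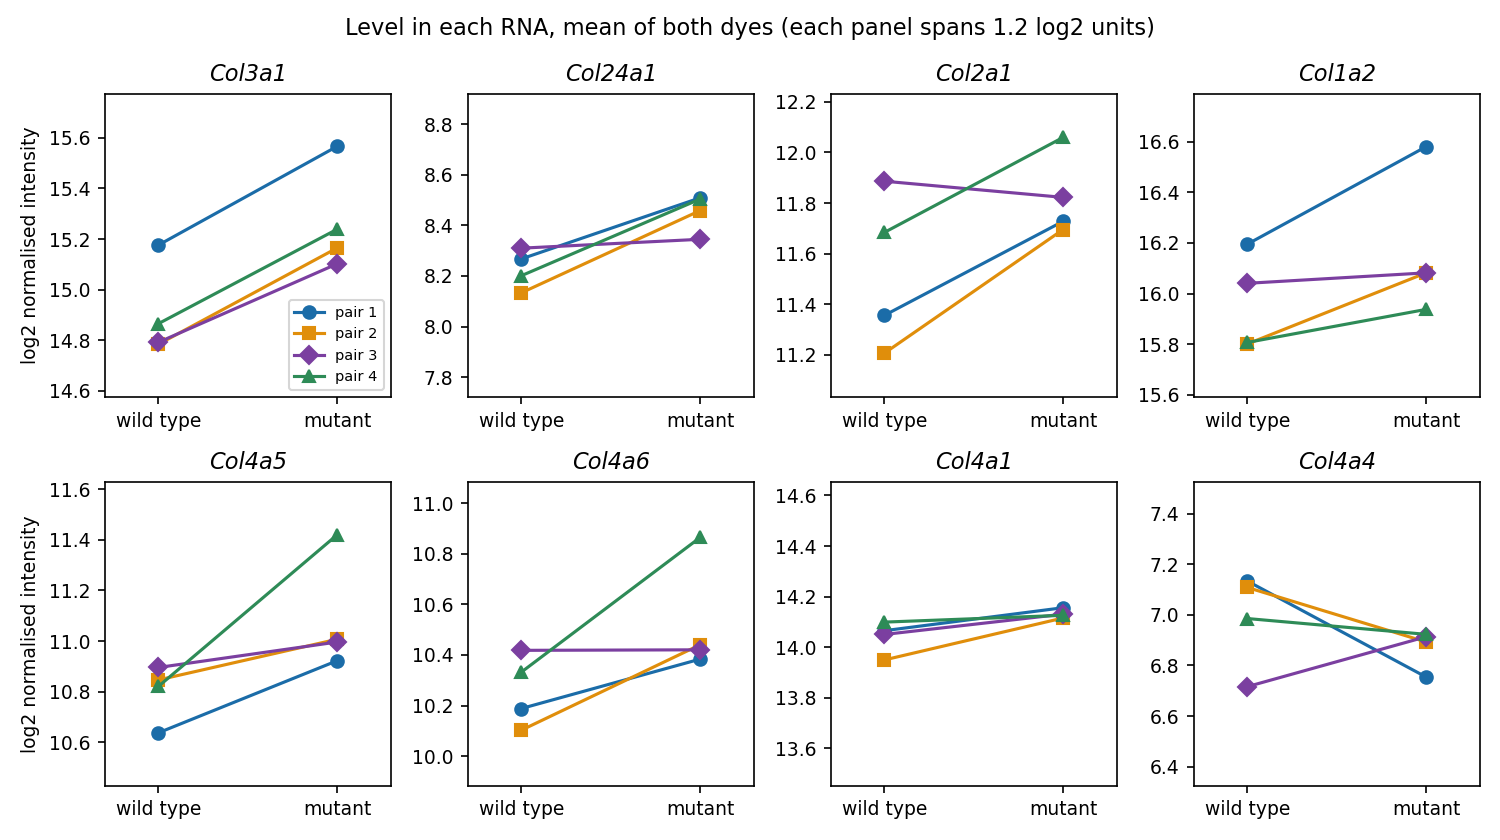
Points are log2 normalised intensities of each RNA, averaged over its 2 dyes, for 4 fibrillar genes (top) and 4 type IV genes (bottom), with lines joining the wild-type and mutant RNA of a pair. The mutant end is the higher one in every pair for Col3a1, Col24a1, Col1a2, Col4a5, Col4a6 and Col4a1, whereas it is the lower one for Col2a1 in pair 3 and for Col4a4 in 3 of 4 pairs.

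Basement membrane genes had a median of 0.02, with 4 of 7 means above 0, against 53.9% of all genes. In all pairs, 3 of 7 were above 0, against 12.1%. The type IV genes split. Col4a5 and Col4a6, neighbours on chromosome X whose chains join in the basement membranes of Bowman's capsule and collecting ducts, had the highest ratios. Col4a5 levels were 10.64, 10.85, 10.90 and 10.82 in wild type and 10.92, 11.01, 11.00 and 11.42 in the mutant, without overlap. Its ratios were 0.28, 0.16, 0.10 and 0.60 (mean 0.29 ± 0.09, limma adjusted p = 0.425), and its other probe gave a mean of 0.31. Col4a6 levels were 10.19, 10.10, 10.42 and 10.33 in wild type and 10.38, 10.44, 10.42 and 10.86 in the mutant, with overlap. Its ratios were 0.20, 0.34, 0.00 and 0.53 (mean 0.27 ± 0.09, limma adjusted p = 0.441). By these probes both genes were highest in pair 4 and lowest in pair 3, whereas the other Col4a5 probe was highest in pair 3, at 0.40.

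Col4a1 and Col4a2 encode the chains of the network found in nearly all basement membranes. Col4a1 levels were 14.07, 13.95, 14.05 and 14.10 in wild type and 14.16, 14.12, 14.13 and 14.13 in the mutant, a narrow range in which the genotypes did not overlap. The ratios were small, at 0.09, 0.17, 0.08 and 0.03 (mean 0.09 ± 0.05, limma adjusted p = 0.576). Col4a2 was at 0.11, 0.04, -0.10 and -0.19 (mean -0.04 ± 0.07), and its sign differed between the dyes.

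Col4a3 and Col4a4 supply, with Col4a5, the network of the mature glomerular filter, in which inherited defects cause Alport syndrome. Col4a3 was well above background in 0 channels. Col4a4 was dim, at 7.13, 7.11, 6.72 and 6.99 in wild type and 6.75, 6.89, 6.91 and 6.92 in the mutant, with overlap. It was at -0.38, -0.22, 0.20 and -0.06 (mean -0.12 ± 0.10, limma adjusted p = 0.682). The podocyte markers, whose cells make this network later on, had a median of 0.34. Means were above 0 in 9 of 9 of them, against 53.9% of all genes. Their summed level was 36075 to 38185 in wild type and 40651 to 63270 in the mutant. Most of that sum was Wt1, at 14.90, 14.86, 15.03 and 14.99 in wild type and 15.03, 15.10, 15.06 and 15.79 in the mutant. The Wt1 ratio averaged 0.60 with mutant RNA in Cy5 and 0.0005 with it in Cy3. The part of podocytes in the Col4a4 ratio was not tested.

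Types XV and XVIII are proteoglycan-bearing collagens, and type XVIII is the source of endostatin. Col15a1 was at -0.08, -0.15, 0.12 and 0.18 (mean 0.02 ± 0.08). Col18a1 was at -0.21, -0.06, 0.23 and -0.09 (mean -0.03 ± 0.08). On these probes neither held a direction over pairs, and both had opposite signs in the dye orientations, Col15a1 at -0.25 and 0.29 and Col18a1 at -0.15 and 0.09. The other Col15a1 probe was above 0 in all 4 pairs, at 0.24, 0.16, 0.24 and 0.01 (mean 0.16).

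Among the other types, type VI chains form beaded filaments between fibrils and basement membranes. All 5 of their genes tested had a mean above 0, against 53.9% of all genes, with a median of 0.29. Of the 5, Col6a1 and Col6a2 were below 0 in pair 3. Col6a5 was at 0.78, 0.24, 0.08 and 0.74 (mean 0.46 ± 0.13, limma adjusted p = 0.406). Col6a3, the long chain shared by most type VI collagen, was at 0.55, 0.27, 0.02 and 0.63 (mean 0.37 ± 0.11, limma adjusted p = 0.417), but its other probe gave -0.01. Col6a4 was more even, at 0.37, 0.43, 0.14 and 0.22 (mean 0.29 ± 0.07, limma adjusted p = 0.397), with all 8 arrays above 0. By the brightest probe, the levels of the genotypes did not overlap for Col6a3, Col6a4 or Col6a5. The other Col6a5 probe gave 0.14, but it was kept through the mutant alone, with 3 wild-type and 7 mutant channels well above background. Col6a6 failed the dim filter, with 3 wild-type and 5 mutant channels above background.

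Type VIII collagen forms the hexagonal networks of vessel walls and some membranes. Col8a2 was at 0.73, 0.41, -0.03 and 0.69 (mean 0.45 ± 0.13) and Col8a1 at 0.56, 0.25, -0.16 and 0.46 (mean 0.28 ± 0.12). Both were high in pairs 1 and 4 and below 0 in pair 3. Their limma adjusted p-values were 0.411 and 0.486.

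Types XII and XIV bind to the surface of fibrils. Col14a1 was at 0.35, 0.25, 0.18 and 0.44 (mean 0.30 ± 0.06, limma adjusted p = 0.346), the second smallest adjusted p of the collagen genes. Col12a1 was at 0.18, 0.09, 0.11 and 0.31 (mean 0.17 ± 0.06), although its other probe gave -0.07. Together with Col3a1 and Col6a4, these were the 4 of 39 collagen genes above 0 on all 8 arrays, against 3.35% of all genes. Col20a1, of the same family, had small even ratios of 0.05, 0.06, 0.09 and 0.05 (mean 0.06 ± 0.05, limma adjusted p = 0.672). As a group, the fibril-associated genes had a median of 0.05.

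The remaining 13 genes of other types had means between -0.16 and 0.21 with a median of 0.05. They were Col6a1, Col6a2, Col7a1, Col9a1, Col9a2, Col9a3, Col13a1, Col16a1, Col17a1, Col22a1, Col23a1, Col25a1 and Col26a1. By its brightest probe, none was above or below 0 in all 4 pairs, which follows from how the 13 were chosen. Genes of other types with the same sign in all 4 pairs, or with the largest mean ratios, had already been set apart. The range and median of the 13 reflect that choice as well. For Col9a3, 7 of 8 arrays gave a value. Col10a1, Col19a1 and Col28a1 were well above background in 0 channels.

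The classes were compared pair by pair. The fibrillar mean was 0.29, 0.25, 0.01 and 0.24 in pairs 1 to 4, and the basement membrane mean was 0.00, 0.04, 0.09 and 0.14. Their difference was 0.29, 0.21, -0.08 and 0.10 (mean 0.13, SD 0.16, n = 4), above 0 in 3 of 4 pairs and smaller than the spread between pairs. The mean of the other types was 0.31, 0.20, -0.07 and 0.17, which was also lowest in pair 3. With the sex-linked transcripts as a covariate the difference of fibrillar over basement membrane was 0.04.

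Beside these means, the marker lists also varied by pair. Over all genes, 53.9% of means were above 0. The stroma list, with 12 of 12 genes tested and 12 of 12 means above 0, had medians of 0.29, 0.21, 0.02 and 0.38. Its summed level ran from 140442 to 169992 in wild type and from 158165 to 195694 in the mutant. Its lowest median fell in the same pair as the lowest fibrillar mean. The nephron progenitor list, with medians of 0.18, 0.06, -0.29 and 0.08, was also lowest in that pair. The ureteric list, with 12 of 12 tested and 1 mean above 0, had medians of -0.74, -0.30, 0.07 and -0.57 and summed levels of 113280 to 169926 in wild type and 90227 to 125132 in the mutant. Macrophage markers were above 0 in 11 of 11 genes, with a median of 0.27, and smooth muscle markers in 1 of 9, with a median of -0.09. The part of these cells in the collagen ratios was not tested.

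**Figure D3:**
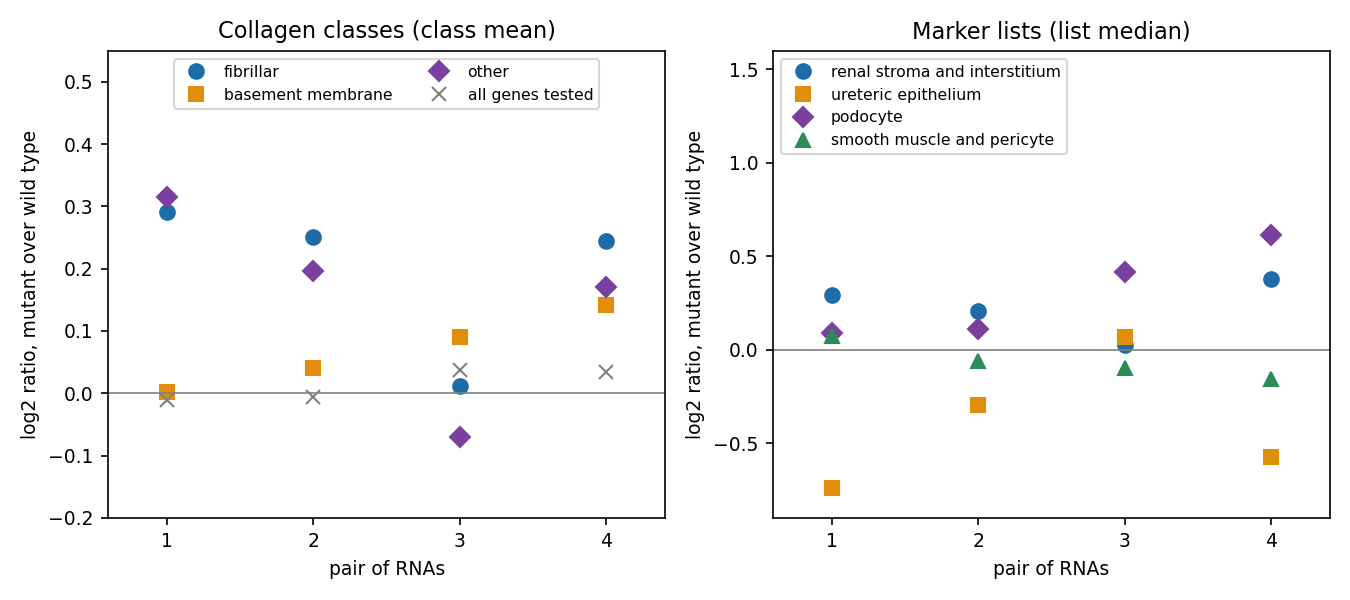
Left, mean log2 ratio of the genes of each collagen class and of all genes in each pair. Right, median log2 ratio of 4 marker lists in each pair. Pair 3 had the lowest fibrillar mean, at 0.01, and the lowest stroma median, at 0.02. Its ureteric median was 0.07 against -0.30 to -0.74 in the others. The nephron progenitor list, not drawn, also had its lowest median in pair 3, at -0.29.

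Several collagen genes lie beside each other in the genome. Col4a1 and Col4a2, on chromosome 8, are transcribed away from each other, and their annotated starts overlap by 22 bases. Their ratios differed by -0.02, 0.13, 0.18 and 0.22 in pairs 1 to 4 (first minus second). For Col4a5 and Col4a6 the differences were 0.09, -0.18, 0.10 and 0.07. For Col3a1 and Col5a2, on chromosome 1, they were 0.26, 0.15, 0.39 and -0.59. These neighbours did not keep the same ratio in each pair.

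Col6a1 and Col6a2, on chromosome 10, encode chains that assemble into 1 type VI molecule, and their ratios were the closest. Col6a1 was at 0.53, 0.16, -0.13 and 0.08, and Col6a2 at 0.62, 0.15, -0.10 and 0.09. They differed by at most 0.10 in any pair, while each varied over pairs from below 0 to above 0.5. This holds for the means over dyes: with mutant RNA in Cy5, Col6a1 averaged -0.01 and Col6a2 0.25. The upstream windows of this pair are shown because the genes moved together over pairs. Both lie on the minus strand, Col6a1 with its window at chr10:76726045-76726294 and Col6a2 at chr10:76623631-76623880.
Col6a1: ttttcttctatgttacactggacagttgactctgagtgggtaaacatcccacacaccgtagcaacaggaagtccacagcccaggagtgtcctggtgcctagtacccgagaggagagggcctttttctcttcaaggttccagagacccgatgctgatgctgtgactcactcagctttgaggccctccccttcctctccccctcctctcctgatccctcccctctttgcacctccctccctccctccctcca
Col6a2: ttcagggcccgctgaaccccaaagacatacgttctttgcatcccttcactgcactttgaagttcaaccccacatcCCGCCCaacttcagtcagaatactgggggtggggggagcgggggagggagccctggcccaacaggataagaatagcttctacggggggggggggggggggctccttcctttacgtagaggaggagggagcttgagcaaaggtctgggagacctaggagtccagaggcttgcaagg
Col6a1 holds none of the 3 motifs, and Col6a2 holds 1 GGGCGG, read on the opposite strand.

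**Figure D4:**
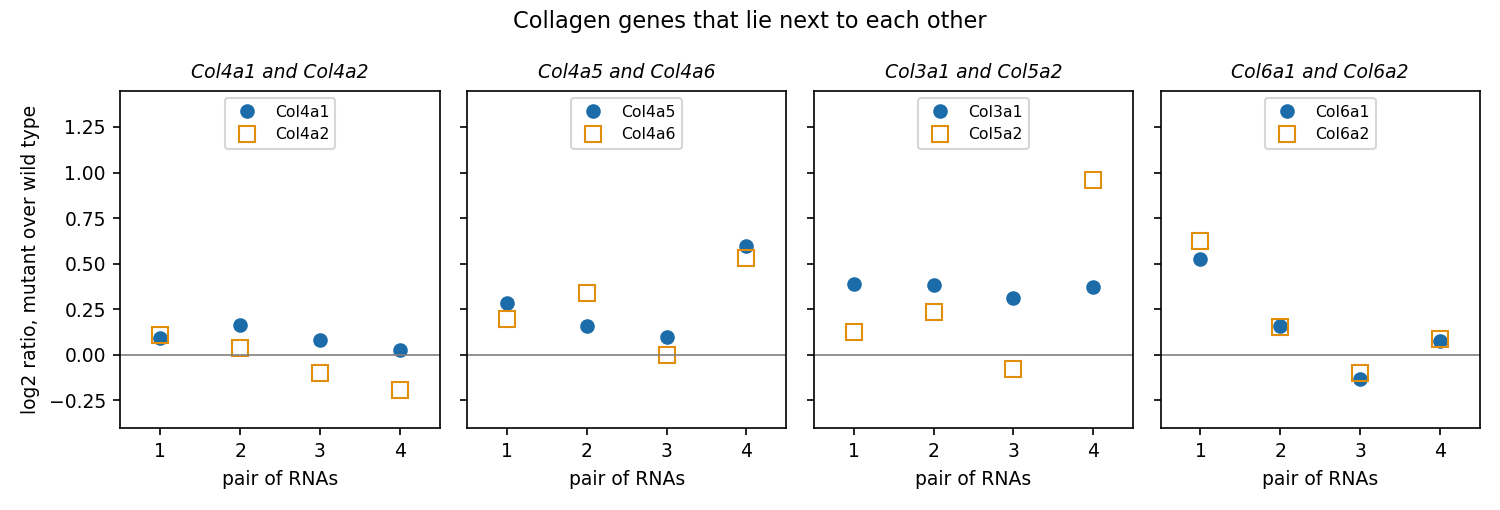
Log2 ratio of mutant over wild type in each pair for 4 sets of adjacent collagen genes, filled circles for the first and open squares for the second. Col6a1 and Col6a2 lie within 0.10 of each other in every pair, whereas Col5a2 lies 0.59 above Col3a1 in pair 4.

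Means over the arrays with mutant RNA in Cy5 and over those with it in Cy3 had opposite signs for 12 of 39 collagen genes, against 51.3% of all genes. The fibrillar median was 0.19 with mutant in Cy5 and 0.30 with it in Cy3, and that of the other types 0.10 and 0.14. For basement membrane genes the sign turned, from -0.07 to 0.11.

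**Figure D5:**
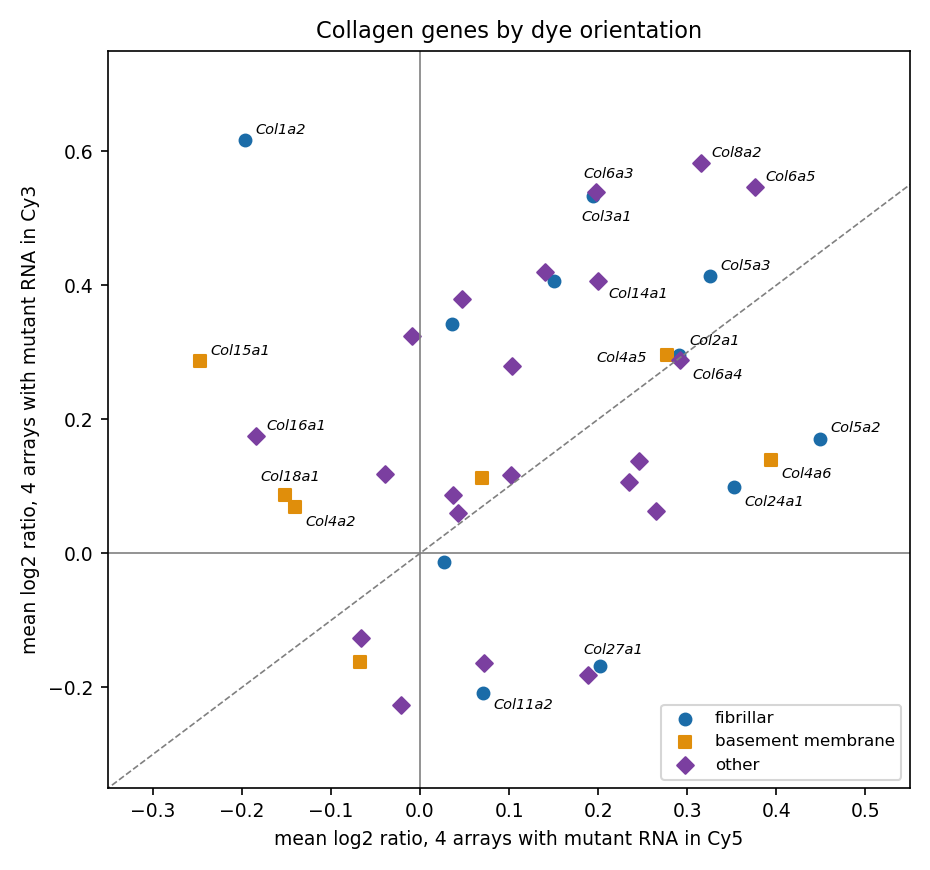
Each point is a collagen gene, with its mean log2 ratio over the 4 arrays with mutant RNA in Cy5 (horizontal) against the 4 with it in Cy3 (vertical), and the dashed line marks equal values. Col1a2, at -0.20 and 0.62, and Col15a1, at -0.25 and 0.29, lie farthest from the line in the upper left, and Col5a3, Col2a1, Col4a5 and Col6a4 lie near it.

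Making collagen needs a chain of enzymes and carriers. In the endoplasmic reticulum, chains are hydroxylated and folded. Of 23 such genes tested, 0 passed limma's test, 18 had means above 0, 5 were above 0 in all pairs and the median was 0.04. Over all genes, 53.9% of means were above 0 and 12.1% of genes were above 0 in all pairs. Plod2, the lysyl hydroxylase of the chain ends, was at 0.15, 0.05, 0.39 and 0.78 (mean 0.34 ± 0.12), and the folding factor genes Fkbp14 and Fkbp9 had means of 0.22 ± 0.08 and 0.21 ± 0.08. P4ha1, a prolyl hydroxylase subunit, averaged 0.20 ± 0.08. Genes for procollagen export showed no common direction, with 7 of 13 means above 0 and a median of 0.01. There, Mia2, which helps load large cargo, was at -0.17, -0.16, -0.07 and -0.06 (mean -0.11 ± 0.06), Klhl12 averaged -0.13 ± 0.06, and the coat gene Sec23a averaged 0.13 ± 0.07 and Trappc2 0.09 ± 0.06.

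Outside the cell, propeptides are cut off and fibrils are cross-linked. Of 15 genes for these steps, 14 were tested, 0 passed, 11 had means above 0, against 53.9% of all genes, and the median was 0.12. Adamts2, the main procollagen N-proteinase, was at 0.63, 0.10, 0.16 and 0.22 (mean 0.28 ± 0.10), and its relative Adamts14 averaged 0.17 ± 0.07. The cross-linking oxidase Lox was at 0.21, -0.09, 0.36 and 0.73 (mean 0.30 ± 0.13), and Loxl4 averaged 0.25 ± 0.12. Among receptors, 7 of 11 means lay above 0 and the median was 0.06. Itga11, a fibroblast integrin chain for fibrillar collagen, was at 0.36, 0.11, 0.32 and 0.74 (mean 0.39 ± 0.10, limma adjusted p = 0.398), and the collagen-binding kinase gene Ddr2 averaged 0.17 ± 0.07. Its relative Ddr1 averaged 0.14 ± 0.07, and Mrc2, a collagen uptake receptor gene, 0.08 ± 0.06.

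Proteins that coat or accompany fibrils had the highest median of these lists. Of 18 genes, 0 passed limma's test, 14 had means above 0 and 7 were above 0 in all pairs. The shares over all genes were 53.9% for means above 0 and 12.1% for all pairs. The median of the 18 was 0.19, close to the 0.23 of the fibrillar collagens. Lum, which encodes the fibril-spacing proteoglycan lumican, was at 0.45, 0.66, 0.56 and 1.03 (mean 0.67 ± 0.10, limma adjusted p = 0.232). Prelp was at 0.40, 0.52, 0.29 and 0.28 (mean 0.37 ± 0.06), and decorin's gene Dcn at 0.76, 0.22, 0.25 and 0.60 (mean 0.46 ± 0.11). Eln, for elastin, averaged 0.30 ± 0.08. These 3 proteoglycan genes were above 0.2 in pair 3 as well, but they were picked by smallest p, which favours even ratios. Col3a1, the fibrillar gene with the smallest p, was at 0.31 in pair 3. The mean of the 18 partner genes in pair 3 was 0.11, with 12 of 18 above 0. The fibrillar mean was 0.01, with 6 of 11 above 0.

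Basement membrane partners had 14 of 19 means above 0, against 53.9% of all genes, a median of 0.05 and 0 genes passing the test. Hspg2, for perlecan, was at 0.27, 0.57, 0.01 and 0.40 (mean 0.31 ± 0.10, limma adjusted p = 0.424), and Nid2, for a nidogen that bridges laminin and type IV collagen, at 0.14, 0.41, 0.06 and 0.44 (mean 0.26 ± 0.08). Frem2 averaged 0.22 ± 0.08 and Smoc1 0.16 ± 0.05. Hspg2 and Nid2 were both lowest in pair 3.

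Probes of 1 gene did not always give the same sign. Of 16 collagen genes with more than 1 kept probe, 10 had probes of the same sign and 6 did not (Col6a3, Col11a1, Col12a1, Col13a1, Col23a1 and Col26a1), with a median spread of 0.15 and a largest one of 0.38, at Col6a3. The 10 include Col6a5, whose dimmer probe was kept through the mutant alone. Probes of different transcript regions can report different isoforms, and which isoform each probe reads was not analysed here.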

How the data were processed

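Whole-kidney RNA of 4 wild-type and 4 mutant RNAs was measured on 8 arrays. Per the labels' protocols, 100 ng of total RNA was labelled with Cy3 or Cy5 by Agilent's low-input method. The deposited scanner files give spot and background intensity, and the authors' deposited series table gives log10 ratios of Cy5 over Cy3, not turned for the dye swap. Agilent Feature Extraction is version 8.5.1.1 per the submitters' processing notes and 10.7.3.1 per the file headers. Here median intensities were corrected with normexp (offset 50) and loess-normalised in limma 3.58.1 with R 4.3.3. Control spots (3671 per array) and outlier spots were left out, and both arrays of each pair were averaged. Probes well above background in at least 6 of 8 channels of a genotype were kept, 34594 of 56605, and 56 of 67 collagen probes. A gene was represented by its brightest kept probe and tested with lmFit and eBayes, two-sided, with Benjamini-Hochberg adjustment. The fit was tested on simulated data. The pair number pairs RNAs that shared arrays, and the ratio within a pair is the tested value.

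The collagen members, the classes, the matrix lists (folding, export, processing and cross-linking, receptors, fibril partners, basement membrane partners) and the marker lists were chosen with earlier results of these data known. Named were all fibrillar and basement membrane genes tested, other types with 1 sign in all 4 pairs or among the 6 largest mean ratios, and up to 4 genes per matrix list with the smallest p. Levels were given in full for the 4 fibrillar and 4 type IV genes with the smallest p. Names outside this rule, such as Col6a1, Col6a2 and those listed without values, were set by their place in the genome or by class. Markers of nephron progenitors had 4 of 8 means above 0, of endothelium 5 of 10 and of skeletal muscle 4 of 4 tested. Those of neural cells had 7 of 9 tested above 0, and of adrenal and gonad 1 of 5 tested. The share over all genes was 53.9%. Alternatives changed the normalisation, signal source, filter, probe choice, dye orientation, replicate block, sex-linked covariate, class definition and pairs left out.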

Additional observations from a re-analysis of the deposited data

Results flagged for a closer look

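In 31 sets of 4 pair values examined (each named collagen gene and the classes), 4 held a value whose gap to its nearest neighbour was over Dixon's critical share of the whole range. Chance gives about 1 in 20 such sets. The Col5a3 ratio of pair 1, at 1.13, stood far above the other pairs, on both of its arrays. The Col27a1 ratio of pair 3, at -0.20, stood below the others. The Col20a1 ratio of pair 3, at 0.090, stood above ratios that were themselves near 0.05. The fibrillar class mean of pair 3, at 0.011, stood below the other pairs, in the pair whose sex-linked transcripts had the opposite direction, at -1.72.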

How the results depend on the processing

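limma called 0 collagen genes in every alternative except the fit of all 8 arrays with a dye term and no replicate block, which treats arrays of the same RNAs as independent and called 3 (Col3a1, Col14a1 and Col6a4) and 395 genes in all. With the replicate block (correlation 0.59) it called 0 collagen genes and 39 in all, and the paired averages were used throughout. Median centring called 42 genes in all. It put the median over all genes at 0.14, against 0.01 in the main setting, and gave 23 collagen genes above 0 in every pair (31.0% of all genes), a fibrillar median of 0.38 and a basement membrane median of 0.14.

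The count of 14 collagen genes above 0 in every pair became 9 with the Cy5-mutant arrays alone and 9 with pairs centred on the genes tested, an alternative chosen after seeing the data, and ran from 14 to 24 with 1 pair left out, the highest without pair 3. The count below 0 in every pair became 1 with no filter, 1 with the median of a gene's probes, 1 with the Cy5-mutant arrays, 4 with the Cy3-mutant arrays and 1 to 2 with 1 pair left out. The basement membrane median became 0.073 with processed signals and with the series table, 0.091 with the median of probes, -0.067 and 0.112 with Cy5- and Cy3-mutant arrays alone, 0.086 with the sex-linked covariate, 0.091 with type IV chains alone, and -0.014 to 0.066 with 1 pair left out. Fibrillar minus basement membrane kept its sign in every alternative, from 0.04 with the covariate to 0.21 with class medians.

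Of 26 named collagen genes, 18 kept their sign in every alternative and 8 did not. Median centring turned Col18a1 to 0.14 and Col4a2 to 0.13, and the median of probes turned Col11a1 to -0.077. With Cy5-mutant arrays, Col11a2 was 0.071, Col15a1 -0.25 and Col1a2 -0.20. With Cy3-mutant arrays, Col11a1 was -0.013, Col18a1 0.086, Col27a1 -0.17 and Col4a2 0.069. With the covariate, Col18a1 was 0.086, Col27a1 -0.076 and Col4a4 0.016, and with pairs centred Col11a1 was -0.0060. With 1 pair left out, Col18a1 ran from -0.12 to 0.027, Col27a1 from -0.018 to 0.090, Col11a1 from -0.025 to 0.058, Col15a1 from -0.034 to 0.077 and Col4a2 from -0.085 to 0.017. The cause was not tested.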
